A study of Mus musculus with 8 samples.

Results

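Cadherins and protocadherins are the calcium-dependent adhesion molecules by which neighbouring cells hold each other, and their RNA was followed here in pancreatic islets of mice. The genes were chosen by name and biotype: protein-coding genes called Cdh followed by a number, or Pcdh. Of 48709 genes in the deposited tables, 93 matched, and 71 of them had at least 10 exon reads in 2 or more of the 4 libraries and were kept. The kept genes were 14 of 23 Cdh genes, 11 of 12 protocadherins outside the gene clusters, 8 of 14 Pcdha, 22 of 22 Pcdhb and 16 of 22 Pcdhg genes. The other 22 genes had too few reads, 5 of them none, and 3 of these are given no exon in the tables.

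The libraries labelled β-Tead1-KO, labelled KO below, came from islets in which the labels place a knockout of Tead1, a DNA-binding transcription factor of the Hippo pathway, in the insulin-producing β-cells. The control libraries came from Flox/Flox islets, called Flox below. All mice were C57BL/6 and 1 year old. Each genotype had 2 libraries of total RNA and each library was run on 2 lanes, which were summed. The labels do not name the promoter that drove the deletion. The design text speaks of 3 pooled samples behind a library, while the sample descriptions carry fewer animal-like numbers, so the pool size is unclear. Nothing else states that the libraries are separate animals, so the p-values measure the spread between these libraries.

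Classical cadherins bind like molecules on the next cell and are tied to actin inside the cell through β-catenin, p120-catenin and α-catenin. Type I members such as E-cadherin and N-cadherin hold strong junctions, and in islets both are known to join β-cells to each other and to other endocrine cells. The type II members and the protocadherins outside the clusters are mostly known from the nervous system, where they sort cells and axons. The Pcdha, Pcdhb and Pcdhg genes lie side by side in 3 clusters. Neurons transcribe a few of them per cell, by a choice of promoter that depends on DNA looping by CTCF and cohesin, and so gain a surface identity of their own. Pcdha and Pcdhg transcripts join a variable first exon to constant exons shared by the whole cluster, whereas Pcdhb genes have no constant exons.

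Levels are exon counts scaled to a common total with TMM factors (CPM), and CPM per kilobase of exon where genes are compared with each other. Exon reads totalled 22352518 and 26387280 in the libraries labelled KO and 21938244 and 14069569 in Flox, so Flox library 2 is the shallowest. Reads in introns made up 29.4% and 38.0% of all gene reads in the libraries labelled KO and 28.8% and 43.1% in Flox, higher in library 2 of both genotypes. Tead1 itself was at 137 and 163 CPM in the libraries labelled KO and 101 and 124 CPM in Flox (log2 fold change, or log2FC, 0.41, SE 0.19, edgeR adjusted p = 0.347). Gene-level reads do not resolve a deleted exon, so these values do not check the labels. The 7 β-cell markers together reached 171246 and 151837 CPM in the libraries labelled KO and 188774 and 204435 CPM in Flox, mostly from Ins2 and Ins1. In whole islets, fewer cells of a type and less RNA per cell cannot be told apart.

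Of the 71 kept genes, 69 entered the fit across all 15014 genes, and 4 changed (edgeR, adjusted p below 0.05). Cdh7 and Cdh8 were lower and Pcdhb8 and Pcdhb11 higher in the libraries labelled KO. That is 5.8% of the members, against 3.36% of all genes tested, with 1.76% of all genes higher and 1.6% lower. At an unadjusted p below 0.05 stood 23 members, or 33.3%, against 16.8% of all genes. They were unevenly spread: 12 of 22 Pcdhb, 6 of 13 Cdh, 1 of 15 Pcdhg and 0 of 8 Pcdha genes. Of the 11 protocadherins outside the clusters there were 4. The median log2 fold change was 0.33 over the members and -0.01 over all genes. The CPM of both libraries labelled KO lay above both Flox values for 27 members and below both for 11, while 31 overlapped; groups did not overlap for 55.1% of members and 48.0% of all genes. DESeq2 called 10 members, or 14.5%, against 7.41% of all genes. Pcdhb8, Pcdhb11, Pcdhb12, Pcdhb14, Pcdhb17 and Pcdhb18 were among these 10. Some members passed the minimum of 10 reads through 1 genotype alone: Cdh3, Cdh24, Pcdhb7, Pcdhb9, Pcdhb10 and Pcdhgb4 through the libraries labelled KO, and Cdh7 through Flox. The number of called members was 2 when KO library 1 was left out, 1 for KO library 2, and 13 for either Flox library, where the spread comes from the KO pair alone. Cdh4, Pcdh15, Pcdhb12, Pcdhb14, Pcdhb17 and Pcdhb18 were added to the calls with either Flox library left out. Pcdh1, Cdh22 and Pcdhb20 were added when that was library 1, and Pcdhb9, Pcdhb13 and Pcdhgb1 when it was library 2.

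Cdh7, a type II cadherin, all but disappeared from the exon reads of the libraries labelled KO. The gene (ENSMUSG00000026312, mm10, chr1:109982431-110140157, plus strand) had 7 and 8 exon reads in these libraries and 342 and 361 in Flox. In CPM this was 0.314 and 0.300 in the libraries labelled KO, or 0.307 ± 0.00951, and 15.9 and 25.5 in Flox, or 20.7 ± 6.77 (SD, n = 2 each). Both libraries labelled KO were low and far from the Flox range. The test was passed (log2FC -6.05, SE 0.38, edgeR adjusted p = 0.00293). On read totals, the exact 95% counting interval of the ratio of β-Tead1-KO to Flox was 0.00866 to 0.0258. All Cdh7 exon reads mapped uniquely. Reads across exon junctions numbered 1 and 2 in the libraries labelled KO and 96 and 86 in Flox (log2FC -6.30, edgeR adjusted p = 0.00119). Intron reads, which come largely from unspliced RNA, numbered 1 and 12 in the libraries labelled KO and 107 and 585 in Flox. The intron log2 fold change was -6.07 (SE 0.76, edgeR adjusted p = 0.00909), and intron reads were added as a class once other values were known. Among 31 kept members tested on intron reads Cdh7 alone passed, or 1 against a background of 0.748% of 14443 genes. Pcdh11x, which had too few exon reads to be kept, passed on intron reads in the other direction.

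Cdh8, another type II cadherin, fell by a smaller step. Per kilobase it was the third most abundant member outside the clusters in Flox, and in the libraries labelled KO it stood below Cdh5 and Pcdh1 as well. The gene (ENSMUSG00000036510, mm10, chr8:99024471-99416471, minus strand) had 47.5 and 52.8 CPM in the libraries labelled KO and 96.3 and 93.1 CPM in Flox. The 2 values of each genotype lay close together and the genotypes did not overlap. The means were 50.1 ± 3.72 CPM in the libraries labelled KO and 94.7 ± 2.28 CPM in Flox (SD, n = 2 each) (log2FC -0.92, SE 0.15, edgeR adjusted p = 0.0392). Of its exon reads 79.7% were unique, and on unique reads log2FC was -0.86 (edgeR adjusted p = 0.0461). The call was lost with no filter on low counts (adjusted p = 0.0604), without KO library 1 (0.392) or library 2 (0.336). On intron reads log2FC was -0.67 (edgeR adjusted p = 0.787). Per kilobase, Cdh7 stood at 0.509% and 0.439% of the Cdh8 level in the libraries labelled KO and at 12.7% and 21.1% in Flox.

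The promoters of Cdh7 and Cdh8 are shown because these are the cadherins that fell, and that of Cdh9 because it was the kept gene whose window held the TEAD core motif. The sequences are RefSeq's on GRCm38.p6 and run from 250 bases before to 50 after the start, 5′ to 3′, with the motif in capitals. The Cdh7 window lies at chr1:109982650-109982949 on the plus strand, that of Cdh8 at chr8:99416422-99416721 on the minus strand, and that of Cdh9 at chr15:16728665-16728964 on the plus strand. The Cdh7 start shown here lies 0.469 kb downstream of the gene's first base as counted, so its window lies inside the counted gene. The Cdh9 start used by RefSeq lies 49.2 kb upstream of the gene as counted (chr15:16778101-16857094), so its window is not next to the counted exons.
Cdh7: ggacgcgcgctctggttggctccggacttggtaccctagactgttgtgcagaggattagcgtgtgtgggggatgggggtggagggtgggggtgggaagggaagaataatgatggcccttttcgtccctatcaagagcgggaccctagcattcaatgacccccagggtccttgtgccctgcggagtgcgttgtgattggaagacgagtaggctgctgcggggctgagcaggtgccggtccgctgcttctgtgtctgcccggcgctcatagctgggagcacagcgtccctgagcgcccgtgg
Cdh8: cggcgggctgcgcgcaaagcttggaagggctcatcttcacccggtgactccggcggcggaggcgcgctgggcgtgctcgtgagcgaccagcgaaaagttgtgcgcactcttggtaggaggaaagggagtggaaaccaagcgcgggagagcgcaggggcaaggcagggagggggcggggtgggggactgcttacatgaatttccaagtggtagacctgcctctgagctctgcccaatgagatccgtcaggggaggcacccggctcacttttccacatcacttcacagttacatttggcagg
Cdh9: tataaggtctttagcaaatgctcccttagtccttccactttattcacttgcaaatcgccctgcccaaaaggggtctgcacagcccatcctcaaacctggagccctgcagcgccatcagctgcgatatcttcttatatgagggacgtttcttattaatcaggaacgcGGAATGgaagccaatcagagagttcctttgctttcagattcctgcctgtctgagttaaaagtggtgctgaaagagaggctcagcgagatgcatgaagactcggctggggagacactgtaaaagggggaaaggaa
The motif was searched as GGAATG and, for the other strand, CATTCC. Windows were matched for 15 of the 71 kept genes, 18 windows in all. Of these windows 1 held the motif, or 5.56%, against 14.7% of 32851 windows of all genes. The windows of Cdh8 and of all 3 annotated Cdh7 starts held none. Cdh9, a type II cadherin, had 1 match and 1.57 and 1.16 CPM in the libraries labelled KO, against 1.90 and 1.20 CPM in Flox (log2FC -0.21, SE 0.44, edgeR adjusted p = 0.862). The RefSeq start of Pcdh15 lies 723 kb inside the counted gene. A match is a stretch of letters and not a measured binding site, and no match covers these windows only.

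**Figure D1:**
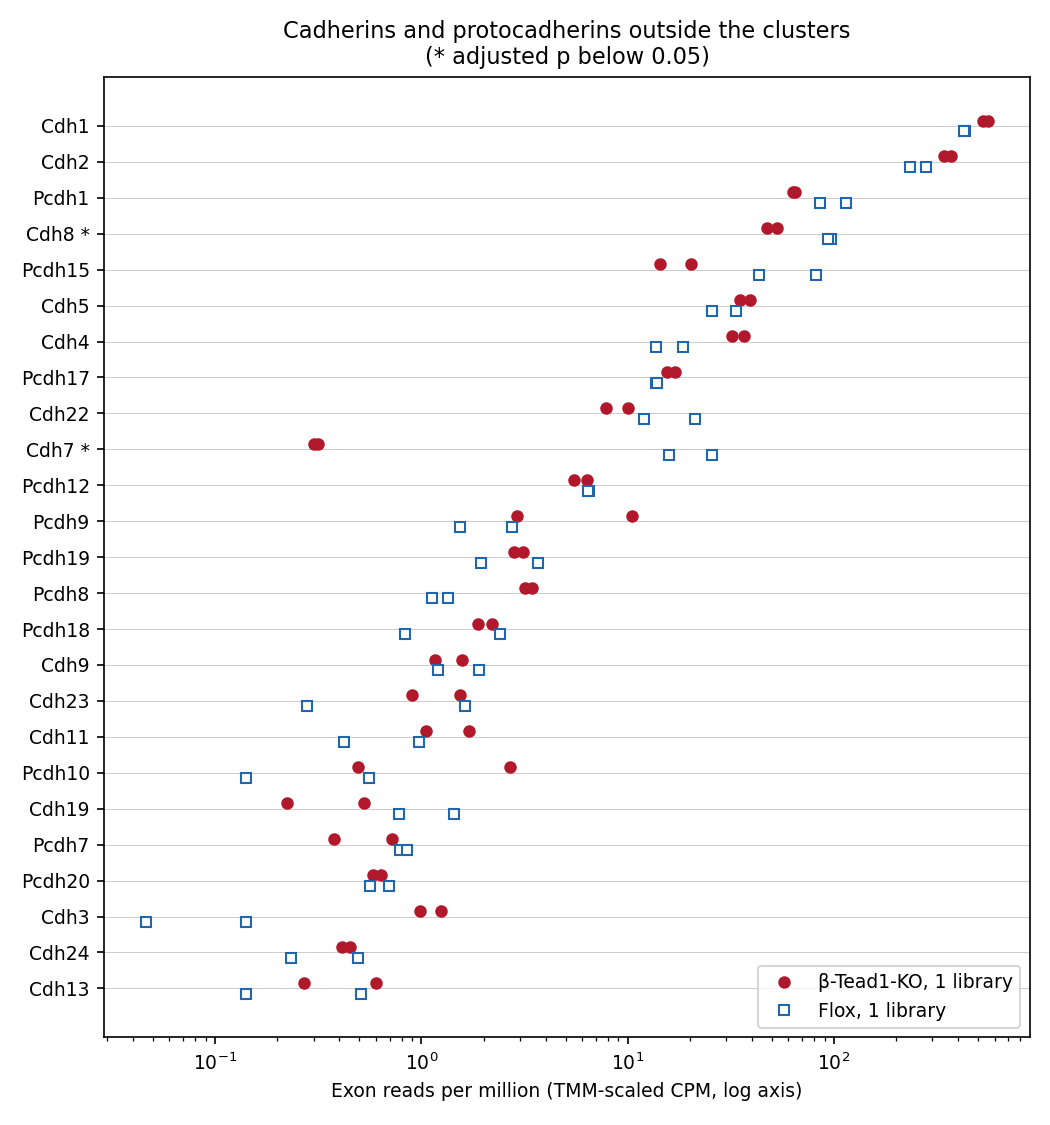
Exon reads (TMM-scaled CPM, log axis) of the 25 kept cadherins and protocadherins outside the clusters, ordered by mean level; filled circles are the 2 libraries labelled KO and open squares the 2 Flox libraries. Cdh1 and Cdh2 lead, Cdh7 is the gene whose circles lie far left of its squares, and Cdh3 has circles right of squares at a very low level.

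E-cadherin (Cdh1), the main junction molecule of epithelia, was the most abundant member. Its level was 556 and 528 CPM in the libraries labelled KO and 434 and 427 CPM in Flox. Both libraries labelled KO were above both Flox libraries, but the gene did not pass (log2FC 0.33, SE 0.18, edgeR adjusted p = 0.446). On intron reads log2FC was -0.68 (SE 0.44, adjusted p = 0.730), of the other sign. N-cadherin (Cdh2), which has 88.7% unique reads, had 342 and 368 CPM in the libraries labelled KO and 278 and 234 CPM in Flox. The genotypes did not overlap and the test was not passed (log2FC 0.47, SE 0.18, edgeR adjusted p = 0.278). Per kilobase, Cdh1 made up 61.1% and 57.6% of the summed level of the 25 kept genes outside the clusters in the libraries labelled KO and 54.8% and 53.9% in Flox. The Cdh2 share was 21.3% and 22.8% in the libraries labelled KO and 19.9% and 16.7% in Flox. The ratio of Cdh1 to Cdh2 overlapped between the genotypes, at 2.87 and 2.53 in the libraries labelled KO and 2.75 and 3.23 in Flox. The summed level of the 25 genes was 199.1 and 200.3 CPM per kilobase in the libraries labelled KO and 173.1 and 173.2 in Flox.

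The other type I cadherins tested were R-cadherin and P-cadherin. R-cadherin (Cdh4) had 31.9 and 36.6 CPM in the libraries labelled KO and 13.7 and 18.6 CPM in Flox. Its groups did not overlap, and it just missed the threshold (log2FC 1.08, SE 0.21, edgeR adjusted p = 0.0608), while it passed in DESeq2 (0.00174) and on unique reads (0.0484). P-cadherin (Cdh3), an epithelial cadherin, had 22 and 33 exon reads in the libraries labelled KO against 1 and 2 in Flox. The ratio of read totals, corrected for depth, was 13.4 with an exact 95% counting interval of 4.34 to 66.8. The fitted log2 fold change of 3.63 (SE 0.78) rests on those 3 Flox reads and did not pass (edgeR adjusted p = 0.0669; 0.0404 with unique reads). Its level stayed near 1 CPM or below, 0.986 and 1.24 in the libraries labelled KO and 0.0464 and 0.141 in Flox.

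VE-cadherin (Cdh5) and Pcdh12 are both known from endothelial cells. Cdh5 had 35.0 and 39.2 CPM in the libraries labelled KO and 33.4 and 25.7 CPM in Flox (log2FC 0.33, SE 0.19, edgeR adjusted p = 0.481). Pcdh12 had 6.32 and 5.48 CPM in the libraries labelled KO and 6.5 and 6.42 CPM in Flox (log2FC -0.13, SE 0.23, edgeR adjusted p = 0.835). Neither passed. The 9 other endothelial markers summed to 622 and 618 CPM in the libraries labelled KO and 560 and 553 CPM in Flox, and 0 of the 8 tested were called by edgeR, 2 having an unadjusted p below 0.05 and Tek passing in DESeq2 (adjusted p = 0.0208).

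Pcdh15 and Cdh23 are the proteins that form the tip links of inner-ear hair cells. Pcdh15 had 14.3 and 20.3 CPM in the libraries labelled KO and 43.1 and 82.2 CPM in Flox. It was lower in both libraries labelled KO, with a wide spread in Flox, and just missed the threshold (log2FC -1.85, SE 0.35, edgeR adjusted p = 0.0562). It passed in DESeq2 (1.36e-05), on unique reads (0.0406) and on junction reads (log2FC -2.08, 0.0274). Cdh23 had 0.896 and 1.54 CPM in the libraries labelled KO and 0.279 and 1.62 CPM in Flox, an overlap (log2FC 0.47, SE 0.81, edgeR adjusted p = 0.830).

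Cdh22, a type II cadherin, had 7.84 and 9.98 CPM in the libraries labelled KO and 12.0 and 21.2 CPM in Flox (log2FC -0.89, SE 0.32, edgeR adjusted p = 0.243). Cdh19, a cadherin known from the Schwann cell lineage, was at 0.224 and 0.525 CPM in the libraries labelled KO and 1.44 and 0.776 CPM in Flox (log2FC -1.56, SE 0.66, edgeR adjusted p = 0.324). Both were lower in both libraries labelled KO without passing. The Schwann and neural markers summed to 87.4 and 87.0 CPM in the libraries labelled KO and 99.9 and 97.9 CPM in Flox, mostly from Mbp, with 0 of 4 tested called or at an unadjusted p below 0.05, and Sox10 did not exceed 0.282 CPM in any library. Cdh11, a cadherin of mesenchymal cells, was at 1.70 and 1.05 CPM in the libraries labelled KO and 0.975 and 0.423 CPM in Flox (log2FC 0.90, SE 0.57, edgeR adjusted p = 0.512). T-cadherin (Cdh13), which is anchored by a lipid instead of spanning the membrane, and Cdh24 stayed at or below 0.600 CPM in every library. Cdh24 was too low for the fit.

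The δ-protocadherins are single genes known for sorting neurons and axons. Pcdh1, the most abundant of them, had 64.9 and 63.6 CPM in the libraries labelled KO and 85.9 and 114 CPM in Flox. Both libraries labelled KO were lower, and the gene did not pass (log2FC -0.63, SE 0.19, edgeR adjusted p = 0.162). Pcdh17 had 15.5 and 16.9 CPM in the libraries labelled KO and 13.7 and 13.8 CPM in Flox (log2FC 0.23, SE 0.18, edgeR adjusted p = 0.597). Pcdh8 had 3.18 and 3.42 CPM in the libraries labelled KO and 1.35 and 1.13 CPM in Flox (log2FC 1.40, SE 0.33, edgeR adjusted p = 0.101), with 73.9% unique reads, the lowest share outside the clusters. For Pcdh9 and Pcdh10, KO library 2 stood apart from the rest. Pcdh9 was at 2.91 and 10.5 CPM in the libraries labelled KO and 1.53 and 2.75 CPM in Flox (log2FC 1.67, SE 0.66, edgeR adjusted p = 0.284). Its intron reads numbered 376 and 3480 in the libraries labelled KO and 112 and 570 in Flox. Pcdh10 was at 0.493 and 2.70 CPM in the libraries labelled KO and 0.557 and 0.141 CPM in Flox (log2FC 2.08, SE 1.00, edgeR adjusted p = 0.381). The remaining Pcdh7, Pcdh18, Pcdh19 and Pcdh20 lay between 0.375 and 3.67 CPM in all libraries, with log2 fold changes of -0.59 to 0.38, and none passed. In all, of 11 protocadherins tested outside the clusters none passed in edgeR, and DESeq2 called Pcdh15 alone. An unadjusted p below 0.05 was reached by 4, against 16.8% of all genes.

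**Figure D2:**
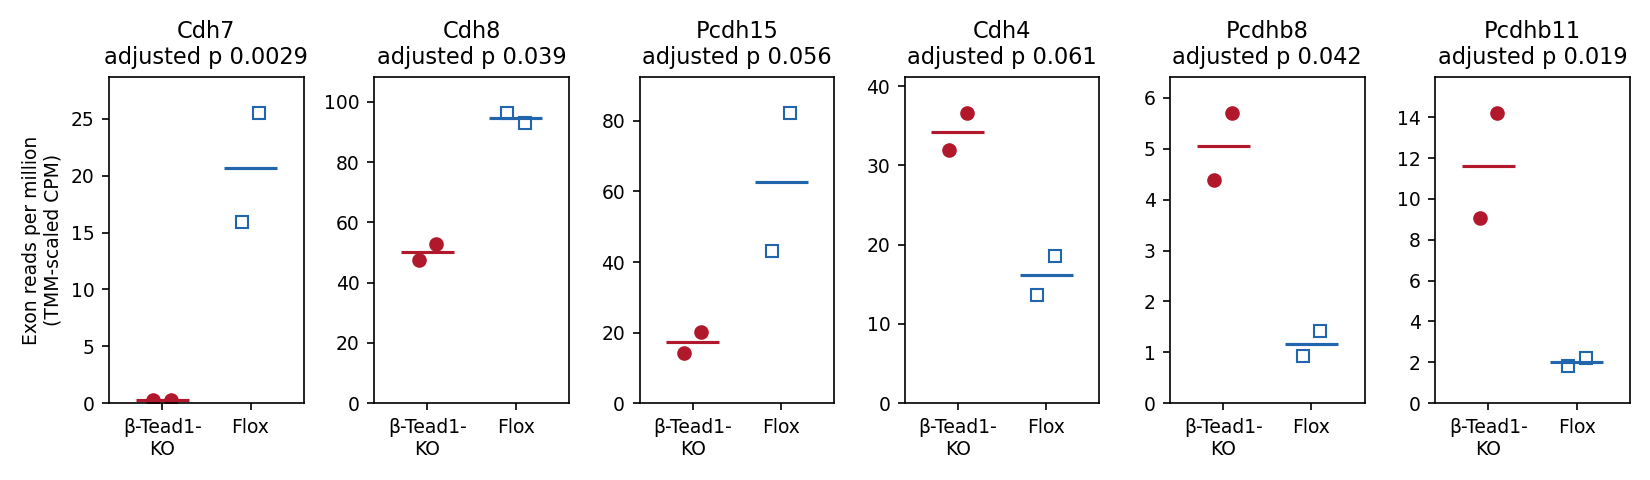
Exon reads (TMM-scaled CPM, linear axes from 0) of the 4 called members and of Pcdh15 and Cdh4; each point is a library, lines are the means of 2 libraries, and β-Tead1-KO stands left of Flox. The genotypes do not overlap in any of the 6 panels, with Cdh7 close to 0 in the libraries labelled KO.

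Of the genes left out for low reads, Cdh17, the cadherin of gut and liver ducts, had 2 and 1 reads in the libraries labelled KO and 4 and 59 in Flox, so nearly all came from Flox library 2. The ductal keratin Krt19 had 3.46 CPM in that library and at most 0.448 CPM in the other 3. Cdh26 had 5 and 3 reads in the libraries labelled KO and 0 in Flox, and Pcdh11x had 6 and 15 in the libraries labelled KO and 1 in each Flox library. Its intron reads numbered 17 and 81 in the libraries labelled KO and 1 and 4 in Flox (log2FC 3.82, SE 0.71, edgeR adjusted p = 0.0430). Cdh6, Cdh10, Cdh12, Cdh18 and Cdh20 had at most 3 reads in a library. Cdh15 and Cdh16, the cadherins of muscle and kidney, had none. The acinar markers, from cells that are no part of the islet, summed to 605 and 4745 CPM in the libraries labelled KO and 1155 and 4276 CPM in Flox, high in library 2 of both genotypes.

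Summed Pcdhb reads were higher in both libraries labelled KO, while summed Pcdha and Pcdhg reads overlapped between the genotypes. Summed over the family, Pcdhb reached 122 and 143 CPM in the libraries labelled KO and 62.0 and 76.4 CPM in Flox. The means were 132 ± 14.8 and 69.2 ± 10.2 CPM (SD, n = 2 each), a log2 ratio of 0.94. The groups did not overlap. With 2 libraries each, an exact permutation test cannot pass 0.05, and no test of the sum was made. Pcdhg summed to 92.0 and 107 CPM in the libraries labelled KO and 82.8 and 114 CPM in Flox, a log2 ratio of the means of 0.02. Pcdha summed to 12.7 and 24.8 CPM in the libraries labelled KO and 12.1 and 21 CPM in Flox, a log2 ratio of 0.18. In Pcdha the 2 libraries of a genotype differed more than the genotype means. Library 2 was higher in both, as was its intron share.

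Among the Pcdhb genes, Pcdhb11 had the lowest edgeR adjusted p. The gene (ENSMUSG00000051486, mm10, chr18:37421418-37425836, plus strand) had 202 and 378 reads in the libraries labelled KO and 39 and 31 in Flox. In CPM this was 9.05 and 14.2 in the libraries labelled KO, or 11.6 ± 3.63, and 1.81 and 2.19 in Flox, or 2.00 ± 0.265 (SD, n = 2 each). The libraries labelled KO were both high (log2FC 2.55, SE 0.32, edgeR adjusted p = 0.0190), and the call was lost without KO library 2 (2.20, adjusted p = 0.130). Pcdhb8 (ENSMUSG00000045876, mm10, chr18:37355121-37358604, plus strand) had 98 and 152 reads in the libraries labelled KO and 20 and 20 in Flox. That is 4.39 and 5.70 CPM in the libraries labelled KO and 0.929 and 1.41 CPM in Flox, with no overlap (log2FC 2.13, SE 0.36, edgeR adjusted p = 0.0420). None of the 650 Pcdhb11 exon reads and 4 of the 290 Pcdhb8 reads were counted as unique. Neither gene could be tested on unique reads, so neither rise could be checked on reads counted for that gene alone. The Pcdhb8 call was lost with no filter on low counts (adjusted p = 0.0532), in edgeR's legacy mode (0.0539), and without KO library 1 (0.180) or library 2 (0.371).

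Averaged over the 4 libraries, the 3 most abundant Pcdhb genes per kilobase were Pcdhb22, Pcdhb14 and Pcdhb18, and none of them passed in edgeR. In the libraries labelled KO alone the called Pcdhb11, at 2.63 CPM per kilobase, stood just above Pcdhb22, at 2.55. Pcdhb14 had 28.7 and 25.3 CPM in the libraries labelled KO and 10.3 and 15.3 CPM in Flox (log2FC 1.08, SE 0.24, edgeR adjusted p = 0.0875, DESeq2 0.00700). Pcdhb18 had 13.6 and 16.3 CPM in the libraries labelled KO and 6.04 and 7.19 CPM in Flox (log2FC 1.18, SE 0.22, edgeR adjusted p = 0.0548, DESeq2 0.00460). Pcdhb22, at the far end of the cluster, had 17.3 and 16.4 CPM in the libraries labelled KO and 19.0 and 15 CPM in Flox, an overlap (log2FC -0.01, SE 0.20, edgeR adjusted p = 0.982). Pcdhb12 and Pcdhb17 passed in DESeq2 (adjusted p = 0.0261 and 0.00457) and not in edgeR (0.0946 and 0.0581).

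By place in the cluster, a grouping made after the values were seen, the Pcdhb genes in the middle differed most. All 15 genes from Pcdhb6 to Pcdhb20 had a positive log2 fold change, 0.64 to 2.67 with a median of 1.18. Of them 12 had an unadjusted p below 0.05 in edgeR, where 8.09% of all genes were higher at that threshold. The limits of this group were set with these fold changes known, so its counts are a description and not a test. Pcdhb7, Pcdhb9 and Pcdhb10 passed the minimum of 10 reads through the libraries labelled KO alone. Almost no read of these genes was counted as unique, so they cannot be taken as separate measurements. Whether their reads are shared among the Pcdhb genes or only with the longer gene models described below was not tested. The 4 highest that edgeR did not call, Pcdhb9, Pcdhb12, Pcdhb10 and Pcdhb13, had log2 fold changes of 2.67, 2.30, 2.09 and 1.80. Of the first 5 genes, 4 had a negative log2 fold change, with a median of -0.39 and none with an unadjusted p below 0.05. Pcdhb21 and Pcdhb22 were at 0.16 and -0.01. Over the family 17 log2 fold changes were positive and 5 negative, with a median of 1.12, against -0.01 for all genes, and the libraries labelled KO lay above both Flox values for 14 of the 22, as they did for 23.9% of all genes.

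**Figure D3:**
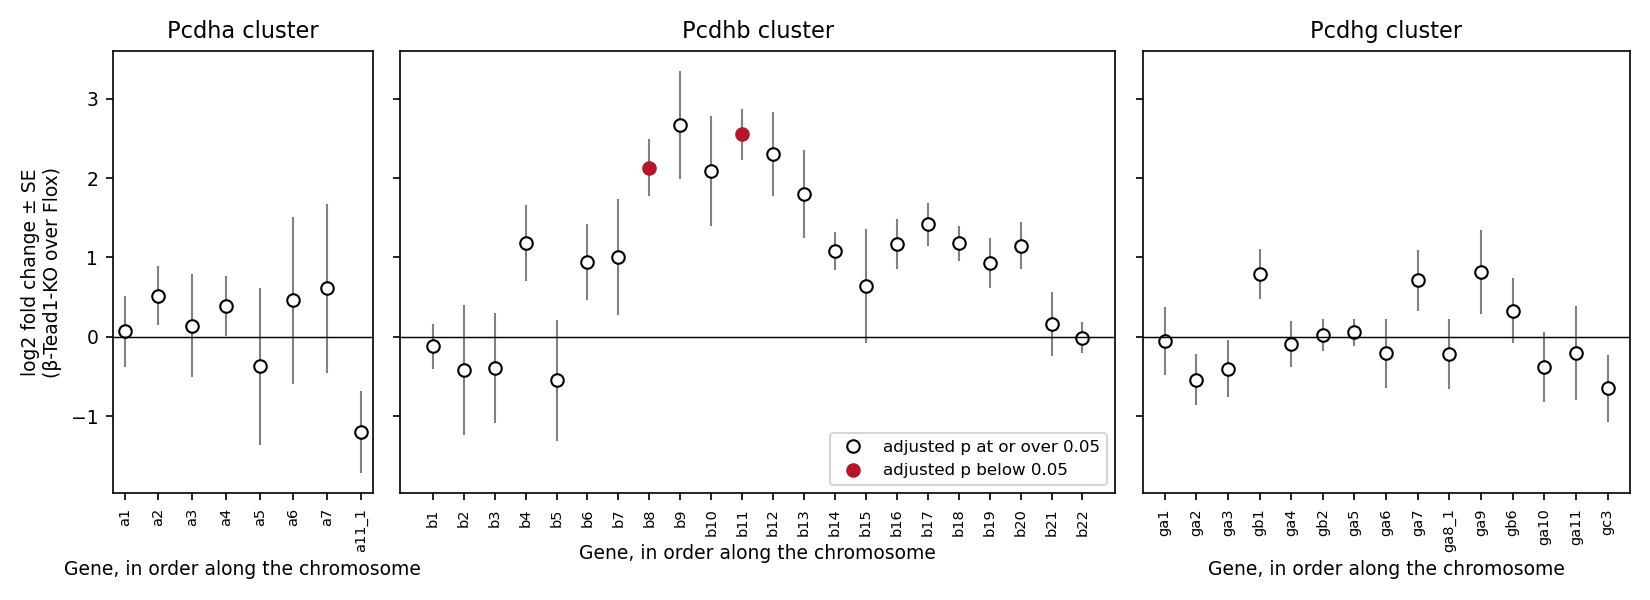
Log2 fold change (β-Tead1-KO over Flox) with its standard error for the 8 Pcdha, 22 Pcdhb and 15 Pcdhg genes tested, in order along the chromosome; filled points have an edgeR adjusted p below 0.05. The Pcdhb genes from Pcdhb6 to Pcdhb20 lie above 0, with the highest values between Pcdhb8 and Pcdhb13, and most Pcdha and Pcdhg genes lie within about 1 unit of 0.

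In the Pcdhg cluster the most abundant gene per kilobase was Pcdhga5, with 29.8 and 33.6 CPM in the libraries labelled KO and 28.1 and 32.4 CPM in Flox (log2FC 0.06, SE 0.17, edgeR adjusted p = 0.895). Pcdhgb2 had 11.6 and 14.0 CPM in the libraries labelled KO and 12.6 CPM in each Flox library (log2FC 0.02, SE 0.20, edgeR adjusted p = 0.975). Pcdhga3 had 9.37 and 8.56 CPM in the libraries labelled KO and 7.76 and 15.9 CPM in Flox (log2FC -0.40, SE 0.36, edgeR adjusted p = 0.652). The 3 genes overlapped between genotypes. Of 15 Pcdhg genes tested, 6 were higher and 9 lower on average, the range was -0.65 to 0.82, 0 passed in edgeR or DESeq2, and 1 had an unadjusted p below 0.05.

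In the Pcdha cluster the leading genes were Pcdha2, Pcdha4 and Pcdha1. Pcdha2 had 4.57 and 7.51 CPM in the libraries labelled KO and 3.30 and 5.22 CPM in Flox (log2FC 0.52, SE 0.37, edgeR adjusted p = 0.562). Pcdha4 had 2.55 and 4.09 CPM in the libraries labelled KO and 2.09 and 3.03 CPM in Flox (log2FC 0.39, SE 0.38, edgeR adjusted p = 0.679). Pcdha1 had 1.75 and 3.94 CPM in the libraries labelled KO and 2.65 and 2.82 CPM in Flox (log2FC 0.07, SE 0.45, edgeR adjusted p = 0.961). All 3 overlapped. None of the 8 Pcdha genes tested passed in edgeR or DESeq2 or had an unadjusted p below 0.05.

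Few of the clustered reads were counted as unique. Unique reads were 5 of 8941 Pcdhb exon reads, or 0.0559% (exact 95% binomial interval 0.0182 to 0.130), all 5 in the libraries labelled KO. They were 28.1% of 1505 Pcdha reads (25.8 to 30.5) and 17.4% of 8296 Pcdhg reads (16.6 to 18.2). Outside the clusters at least 99% of reads were unique for 19 of 25 kept genes. Intervals cover counting error only, since reads carry no molecular identifiers. The unique share of Pcdhb was 0.0736% and 0.0788% in the libraries labelled KO and 0% in both Flox libraries. For Pcdhg it was 18.3% and 15.9% in the libraries labelled KO and 20.4% and 15.6% in Flox. For Pcdha it was 30.6% and 23.9% in the libraries labelled KO and 42.1% and 22.8% in Flox. The unique reads of Pcdhb8 were 4 of 290, and no other Pcdhb gene but Pcdhb14 had any, 1 of 1754.

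On chromosome 18 the whole Pcdhb cluster lies inside 3 longer gene models on the same strand, Gm42416 (36952741 to 37840200), Gm37013 (36969916 to 37833296) and Gm37388 (36975941 to 37833296). Taf7 and Slc25a2, genes of the opposite strand inside the same models, had unique shares of 19.9% of 2229 and 0% of 36 exon reads, both well below the shares outside the clusters. The 7 Pcdhg genes from Pcdhga1 to Pcdhga5 start inside the same models and had unique shares of 5.65% to 10.9%. The Pcdha genes from Pcdha8 on and the Pcdhg genes from Pcdhga6 on also start inside them. Their unique shares were 95.2% to 100% and 75% to 100%, but their reads were mostly junction reads, as given below. The part of the models in the low Pcdhb shares was not tested. The 3 models had 6 exon reads together, but 3385, 386 and 506 intron reads, and in 7 of 8 lanes all such reads stood on 1 of the 3 models. They were on Gm42416 in both lanes of KO library 2, on Gm37013 in lane 1 and Gm42416 in lane 2 of KO library 1, and on Gm37388 in both lanes of Flox library 1. In Flox library 2 lane 1 held 480 on Gm42416 and 26 on Gm37388, and lane 2 held 527 on Gm42416. The intron call of Gm37388 (log2FC -11.99, edgeR adjusted p = 0.0424) rests on these reads.

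Within the Pcdha and Pcdhg clusters the counting changed along the cluster. For each gene with at least 10 exon reads, the annotated gene spans that cover its start were counted, its own included. Pcdha1 to Pcdha7, with 1 to 9 spans, had 0.84% to 11.6% of their exon reads across junctions. From Pcdha8 on, with 11 to 16 spans, the share was 80.0% to 94.4%. In Pcdhg the 7 genes up to Pcdhga5, with 4 to 10 spans, had 4.31% to 9.46% junction reads, and the 12 genes from Pcdhga6 on, with 11 to 24 spans, had 81.1% to 95.5%. The later genes had 0 intron reads in Pcdha and 5 in Pcdhg, against 1553 and 3276 for the earlier ones. Over all genes, the 18 with 11 or more spans had a median junction share of 90%, and 17 of them were clustered protocadherins. The median was 5.42% for 11 genes with 6 to 10 spans, 15.3% for 224 genes with 3 to 5, 29.4% for 3529 genes with 2 and 41.2% for 13247 genes with 1. Reads without a junction were thus nearly missing wherever more than 10 spans overlapped, so the early genes of a cluster and the late ones were not counted alike. Their levels are not comparable, and the lead of Pcdhga5 and Pcdha2 holds only among the early genes, with 10 or fewer spans. Of the exon reads of these 2 genes, 6.9% and 7.38% were unique. A fold change between genotypes compares each gene with itself, but shared reads need not have been placed alike in every library. The intron reads of the longer models stood on different models in different libraries. Whether the same holds for reads of the clustered genes was not tested. The cause of the change at 10 spans was not tested.

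**Figure D4:**
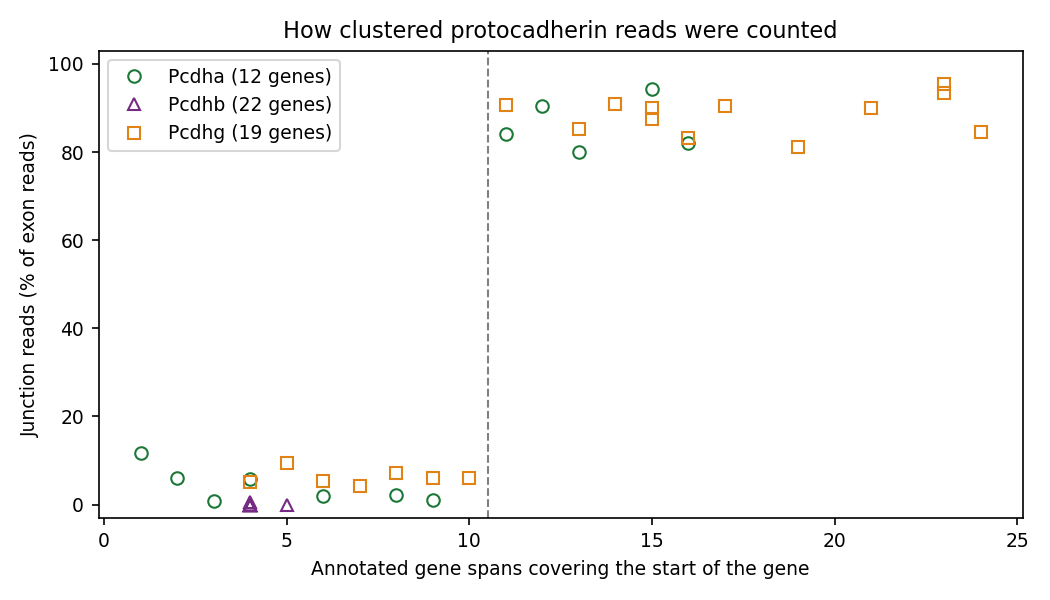
Share of exon reads that cross an exon junction (%), against the number of annotated gene spans covering the start of the gene, for 53 clustered protocadherins with at least 10 exon reads over the 4 libraries. All 36 genes left of the dashed line, with 10 or fewer spans, lie at or below 11.6%, and all 17 to its right, with 11 or more, lie at or above 80.0%.

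Among the partners inside the cell, no catenin changed. β-catenin (Ctnnb1), which links cadherins to actin and also carries Wnt signals, had 434 and 385 CPM in the libraries labelled KO and 322 and 362 CPM in Flox (log2FC 0.26, SE 0.18, edgeR adjusted p = 0.556). p120-catenin (Ctnnd1), which keeps cadherins at the surface, had 211 and 217 CPM in the libraries labelled KO and 188 and 203 CPM in Flox (0.13, SE 0.16, edgeR adjusted p = 0.738). α-catenin (Ctnna1), the actin link, had 125 and 123 CPM in the libraries labelled KO and 120 and 123 CPM in Flox (0.03, SE 0.15, edgeR adjusted p = 0.948). Ctnnb1 and Ctnnd1 were higher in both libraries labelled KO by small steps, without passing. Of 9 catenins tested 0 passed in edgeR and 3 had an unadjusted p below 0.05, against 16.8% of all genes. DESeq2 called Pkp4 (adjusted p = 0.0413), and the median log2 fold change was 0.02. Of 11 junction partners 1 fell and none rose in edgeR, against the 3.36% of all genes called. An unadjusted p below 0.05 was reached by 3 of them, against the same 16.8%. The gene that fell was Ctnnbip1, an inhibitor of β-catenin's binding to TCF factors, with 9.99 and 9.76 CPM in the libraries labelled KO and 21.5 and 21.9 CPM in Flox (log2FC -1.13, SE 0.18, edgeR adjusted p = 0.0330). DESeq2 called Nectin1 as well, a partner of afadin at adherens junctions, with 24.3 and 30.0 CPM in the libraries labelled KO and 44.3 and 69.7 CPM in Flox (log2FC -1.07, DESeq2 adjusted p = 0.00731, edgeR 0.106).

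In the rest of the cadherin superfamily 15 of 27 genes were tested. In edgeR 2 rose and 1 fell, against 3.36% of all genes called. An unadjusted p below 0.05 was reached by 7, against 16.8% of all genes, and the median log2 fold change was -0.55. DESeq2 called 2 higher and 4 lower, against 7.41% of all genes called. It added Fat1 (log2FC -1.21, DESeq2 adjusted p = 0.00391), Clstn2 (-2.06, 0.0195) and Cdhr2 (-1.81, 0.00851), which edgeR did not call. Fat3, a giant cadherin of planar cell polarity and neuron shape, had 13.0 and 12.7 CPM in the libraries labelled KO and 1.72 and 2.47 CPM in Flox (log2FC 2.63, SE 0.27, edgeR adjusted p = 0.0114). Celsr1, a core planar cell polarity cadherin, had 0.941 and 1.20 CPM in the libraries labelled KO and 8.78 and 15.2 CPM in Flox (log2FC -3.46, SE 0.38, edgeR adjusted p = 0.0126). Clstn3, a synaptic calsyntenin, had 50.5 and 47.4 CPM in the libraries labelled KO and 24.4 and 26.2 CPM in Flox (log2FC 0.95, SE 0.16, edgeR adjusted p = 0.0388). For each of the 3 the genotypes lay far apart compared with the spread within them. The calls of Ctnnbip1, Fat3, Celsr1 and Clstn3 were lost without KO library 1 (edgeR adjusted p of 0.0725 to 0.269) or library 2 (0.0772 to 0.297). Of 6 repressors of Cdh1 4 were tested and 0 passed in edgeR, 1 with an unadjusted p below 0.05. That gene was Snai2 (log2FC 1.47, edgeR adjusted p = 0.0966, DESeq2 0.0416). Of 8 regulators of the choice of clustered protocadherins, Ctcf, cohesin subunits and chromatin modifiers among them, 0 passed in edgeR or DESeq2 or at an unadjusted p of 0.05, with log2 fold changes of -0.49 to 0.19.

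Markers of other cells moved with the genotype in the same libraries. The δ-cell markers summed to 623 and 466 CPM in the libraries labelled KO and 1810 and 2073 CPM in Flox, with 4 of 4 lower on average, a median log2 fold change of -1.26, and 1 called, Sst (-1.87, edgeR adjusted p = 0.0294). The α-cell markers summed to 8088 and 6455 CPM in the libraries labelled KO and 15496 and 12389 CPM in Flox, with 5 of 5 lower on average and a median of -1.03. The 2 polypeptide-cell markers summed to 1078 and 572 CPM in the libraries labelled KO and 2438 and 2616 CPM in Flox, with none called by edgeR, both at an unadjusted p below 0.05 and both called by DESeq2. Of 7 β-cell markers Slc2a2 was called (-2.30, edgeR adjusted p = 0.0138) and all 7 were lower on average, with a median of -0.93. Of 5 mesothelial markers Msln alone was tested, and it was called (-7.40, edgeR adjusted p = 0.0153); the other 4 did not exceed 0.186 CPM. These lists stand beside the falls of Cdh7 and Cdh8, and their part in them was not tested.

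The mesenchymal markers summed to 321 and 291 CPM in the libraries labelled KO and 246 and 198 CPM in Flox. None of 10 was lower on average, the median log2 fold change was 1.19, and Col1a1 (1.74, edgeR adjusted p = 0.0496) and Col1a2 (1.14, 0.0388) were called. The erythroid markers summed to 317 and 235 CPM in the libraries labelled KO and 121 and 52.5 CPM in Flox, with 5 of 5 higher and Hbb-bt called (1.96, edgeR adjusted p = 0.0259). Ductal, acinar, macrophage and lymphocyte lists had 0 members called by edgeR, with 1 member at an unadjusted p below 0.05, in the ductal list. Of 5 macrophage markers 4 were matched. No listed marker found in the tables was at 0 in all 4 libraries. All marker calls named here were lost without KO library 1 (edgeR adjusted p of 0.0876 to 0.287) or library 2 (0.0941 to 0.468). DESeq2 called 5 of 7 β-cell, 4 of 5 α-cell and 2 of 4 δ-cell markers lower, and 5 of 10 mesenchymal and 3 of 5 erythroid markers higher. Of all genes tested, DESeq2 called 7.41% and edgeR 3.36%, in either direction. The part of these cells in the higher Pcdhb reads was not tested.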

How the data were processed

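RNA of 4 islet libraries, 2 labelled β-Tead1-KO and 2 Flox, was sequenced on 2 lanes each. Per the file headers, the deposited tables give counts of whole reads for each gene, separately for exons, exon junctions and introns, and for all reads and unique ones. The submitters' processing notes name mm10 as the genome build. How reads were aligned and counted, which annotation was used and whether strand was considered is not given in the sources used here. Genes, positions and exon lengths were read from the tables.

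Total exon reads of the lanes were summed per library, since lanes differed little beyond sampling noise (chi-square over its degrees of freedom 1.07 to 1.20). Depth was 14069569 to 26387280 exon reads a library, which sets the precision of low genes. Genes were filtered with filterByExpr (minimum count 10, minimum total 15), scaled with TMM and compared with the 2-sided quasi-likelihood test of edgeR 4.0.16 (R 4.3.3, not in legacy mode), with Benjamini-Hochberg adjustment over all 15014 genes and a threshold of 0.05. Fold changes are β-Tead1-KO over Flox, and a standard error is the size of a fold change over the root of its F statistic. The biological coefficient of variation was 24.3%. The fit was tested on simulated data.

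The members, the other gene lists and the marker lists were chosen with earlier results of these data known. Named genes were Tead1, every kept member outside the clusters, and of the clustered ones those called and the 3 most abundant per kilobase of each family. Other adhesion genes and markers were named where called, with Ctnnb1, Ctnnd1 and Ctnna1 in any case. Genes named for a DESeq2 call, for a low read count or for their place in a cluster were chosen after their values were seen. Alternatives were DESeq2 1.42.0, other filters, unique, junction and intron reads, legacy mode, a replicate block and each library left out. Intron reads and legacy mode were added after the data were seen. Promoter windows came from RefSeq (GRCm38.p6). The result of 1 marker gene is not reported here.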

Additional observations from a re-analysis of the deposited data

How the results depend on the processing

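Relative to 504 genes and 4 members called, DESeq2 called 1112 genes and 10 members, intron reads 108 genes and 1 member, and no filter on low counts 2 members. With a library left out the counts ranged from 67 to 2359 genes and from 1 to 13 members; the lone library of a genotype is then assumed to vary like the others. With the library number as a replicate block 1157 genes and 12 members were called. The numbers are shared between genotypes without a stated pairing (correlation of deviations 0.392), and only 2 pairs exist. Cdh7 passed under every alternative run, with log2 fold changes of -6.34 to -5.67. Of the 272 single-gene comparisons with an alternative, 13 changed direction, none of them in a called gene. Cdh1 was at -0.68 on intron reads. Pcdha1 was at -0.04 with the replicate block and -0.62 without β-Tead1-KO library 2, and at most 0.56 with a library left out. Pcdhb22 was at 0.03 with no filter, 0.05 without β-Tead1-KO library 2 and 0.18 without Flox library 1. Pcdhga5 was at -0.18 on junction reads, -0.01 without β-Tead1-KO library 2 and -0.02 without Flox library 1, Pcdhgb2 at -0.01 on junction reads and -0.11 without β-Tead1-KO library 2, and Pcdhga3 at 0.27 on junction reads and 0.21 without Flox library 2, from -0.82 up with a library left out. The cause was not tested. The log2 ratio of the summed Pcdhb level stayed between 0.79 and 1.09 with a library left out, that of Pcdhg between -0.19 and 0.26 and that of Pcdha between -0.38 and 0.63. On unique reads no Pcdhb ratio could be given, since both Flox libraries had 0 such reads. Depth limits the genes below about 1 CPM.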
